A study of Homo sapiens with 6 samples.

Results

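The genes described here are the cell-surface antigens that carry a cluster-of-differentiation (CD) number as their symbol, together with the numbered SIGLEC genes, in MOLM14 cells that had received siRNA against ATF4. Members were the protein-coding genes with a symbol of either form, such as CD44, CD180 or SIGLEC10, whatever their level. There were 74 of them, 64 CD-named and 10 SIGLEC genes, among 14884 named genes on the array. The rule covers 95 genes of the human gene table, and the other 21, among them CD33, CD3D, CD40, CD46, CD55, CD59, CD74 and SIGLEC1, were not analysed here.

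MOLM14 is an established line from an acute myeloid leukaemia of monocytic type. All 6 samples were MOLM14 cells grown in RPMI medium with serum and electroporated with siRNA at 70 nM. One group of 3 arrays received siRNA against ATF4 (siATF4), a transcription factor of the integrated stress response, and the other 3 a non-targeting pool from a different supplier (siCTRL), so all cells had been electroporated and none was left untreated. The time between transfection and harvest is not given in the sources used here, and the labels call the replicates technical, so a p-value here reflects the scatter of these 6 samples alone.

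CD numbers are given to leucocyte surface molecules by the antibodies that recognise them, so the set joins unrelated families: tetraspanins, scavenger and pattern receptors, adhesion molecules, co-stimulatory ligands and parts of antigen receptors. SIGLECs are lectins of the immunoglobulin superfamily that bind sialic acid on glycoproteins and glycolipids. Most carry tyrosine motifs in their tails that recruit the phosphatases SHP-1 and SHP-2 and dampen activation, while SIGLEC14 pairs with the activating adaptor DAP12, which is encoded by TYROBP. Many of these molecules serve to type leukaemic blasts and are targets of antibodies.

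A level is the deposited value of a gene's probe set, read as log2, and a difference is siATF4 minus siCTRL on that scale. Levels of different probe sets are not comparable as amounts of RNA. A gene was called above background in a group when its level on all 3 arrays exceeded the 95th percentile, on the same array, of 85 keratin-associated protein genes, whose products belong to hair; that percentile lay between 4.45 and 4.82. In bulk RNA, fewer cells of a kind and less RNA per cell cannot be told apart. ATF4 read 7.72, 7.88 and 8.14 on siATF4 replicates 1, 2 and 3 and 8.67, 8.64 and 8.85 on siCTRL replicates 1, 2 and 3, a difference of -0.80 (SE 0.14) with no overlap; its unadjusted limma p was 0.000823 and did not pass adjustment over all genes.

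The array of siATF4 replicate 1 stood apart from the other 5, which bears on every result below. On it 133 genes lay at least 1 log2 above every other array and 133 at least 1 below; the same counts were 0 to 10 and 0 to 1 for each of the other arrays. MPO, the myeloperoxidase of granulocyte and monocyte precursors, read 5.58 there and between 8.45 and 10.45 elsewhere, and the growth factor receptor IGF1R read 3.39 there and between 6.14 and 6.34 elsewhere. The differences that it moves most are therefore given with and without that array; the part of other properties of its cells in the results was not tested.

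Of the 74 members, 24 (32.4%) were above background in both groups and 3 more, CD86, CD69 and CD1D, in siCTRL only, which makes 27 (36.5%); of all genes tested, 44.6% were above background in at least 1 group. A further 14 members passed that level on some arrays but not on all 3 of either group, and 33 (44.6%) on no array. The transcripts found on every array included CD68, a lysosomal glycoprotein of monocytes and macrophages, CD99, CD47, CD53, CD93, CD4, CD44 and CD38. CD14, the lipopolysaccharide co-receptor of mature monocytes, lay between 3.22 and 4.18 and passed on no array. The same held for CD34, the stem and progenitor antigen, at 3.35 to 3.74 and for CD274, the PD-1 ligand, at 3.46 to 3.61. A level under this limit does not show that a transcript is absent.

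**Figure D1:**
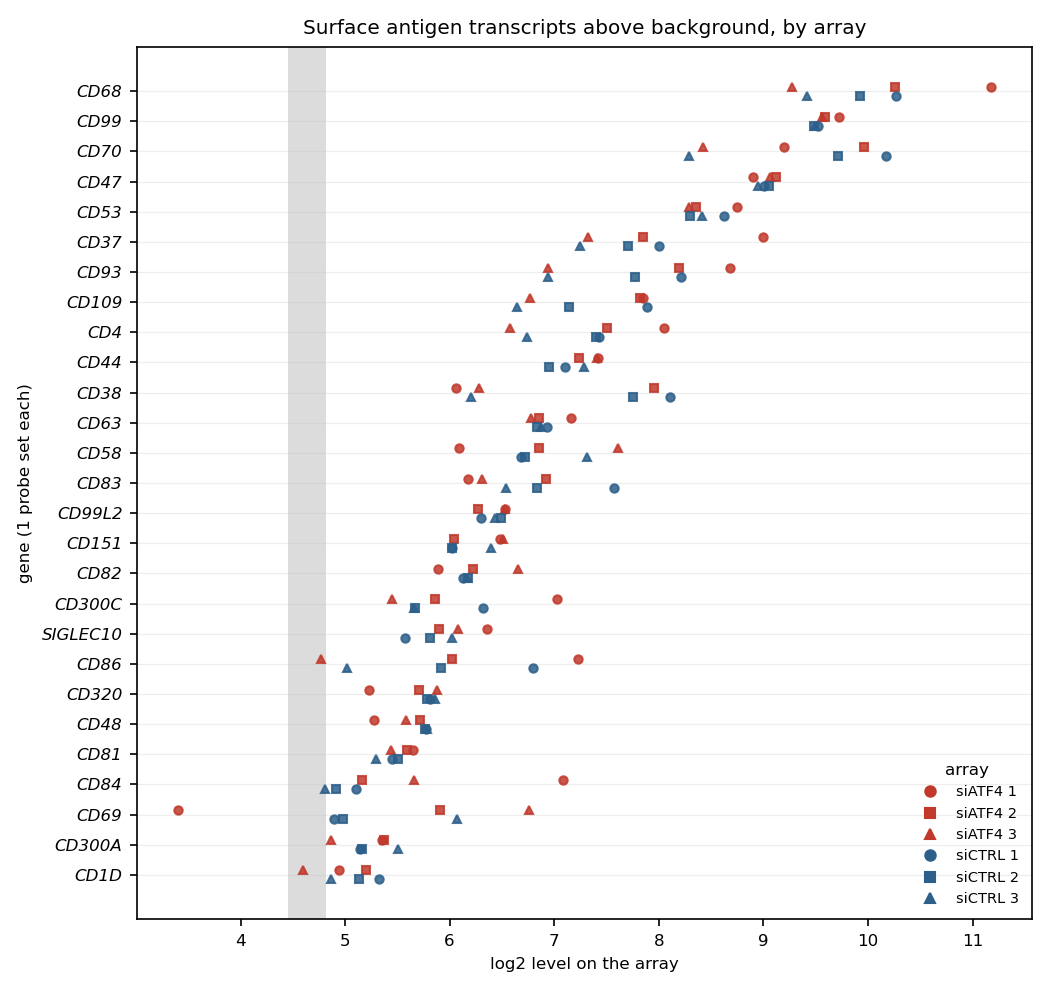
Log2 level (horizontal axis) of each of the 27 members above background, 1 row a gene, with 1 point an array (colour for the siRNA, shape for the replicate number); the grey band spans the background level of the 6 arrays, 4.45 to 4.82. The arrays of a group are often further apart than the groups, as for CD86, whose siCTRL arrays run from 5.02 to 6.80, while CD47 is tight on all 6; rows are not comparable with each other as amounts of RNA.

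The line's label was checked against lineage markers. All 8 measured monocytic and myeloid markers (LYZ, MPO, CSF1R, TYROBP, SPI1, FLT3, MEIS1 and AZU1) were above background in at least 1 group. None of the 5 T-cell markers measured was, with highest levels of 4.58 for ZAP70, 4.19 for CD2, 4.12 for TRAT1, 3.81 for LCK and 3.68 for BCL11B. Of other lineages, NCAM1 (CD56) was above background on every array (6.14 to 6.81), as was the cytotoxic granule gene NKG7 (6.61 to 7.62), and the B-lineage factor PAX5 on 5 arrays (5.28 to 6.12, and 3.76 on siATF4 replicate 1). The platelet chemokine PF4 was also above background on every array (4.99 to 5.28). KLF1, GP9, the B-cell kinase gene BLK and the NK genes GNLY and NCR1 passed on no array. Among the members the T and NK receptors held 1 gene above background of 12 measured, CD4, which monocytic cells also express. CD226, an activating receptor of NK and T cells, passed on 3 arrays (5.28 on siATF4 replicate 2, 5.61 and 4.95 on siCTRL replicates 1 and 2), and CD5, CD6, CD7, CD8A, CD8B, CD27, CD28, CD96, CD160 and CD247 on none.

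No member passed the test between siATF4 and siCTRL, which does not show that their levels were equal. In limma 0 of 74 members had an adjusted p below 0.05, as had 0.0% of the 14884 genes tested, and 0 members had an unadjusted p below 0.05, against 1.46% of all genes. With the replicate number as a block, 2 members (2.7%) lay below the unadjusted level, CD84 and CD101, against 3.12% of all genes, and again 0 had an adjusted p below 0.05. The 2 groups did not overlap for 4 members (CD84, CD99 and CD5 higher and CD48 lower with siATF4), that is, 3 (4.05%) higher and 1 (1.35%) lower, against 3.3% and 2.59% of all genes and 5.89% in both directions together. Among members above background 3 of 27 had no overlap (11.1%), against 6.13% of all genes above background. A difference of at least 1 log2 above 0 was found for 3 members, CD180, CD84 and SIGLEC14 (4.05%), against 0.0739% of all genes, and each of the 3 was highest on siATF4 replicate 1; 0 members were at -1 or lower, against 0.181%. The median difference was 0.01 over the members and 0.01 over all genes tested, with 38 members above 0 and 36 below. The number of arrays limits precision: the median SE was 0.19 over members above background and 0.15 over all genes.

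**Figure D2:**
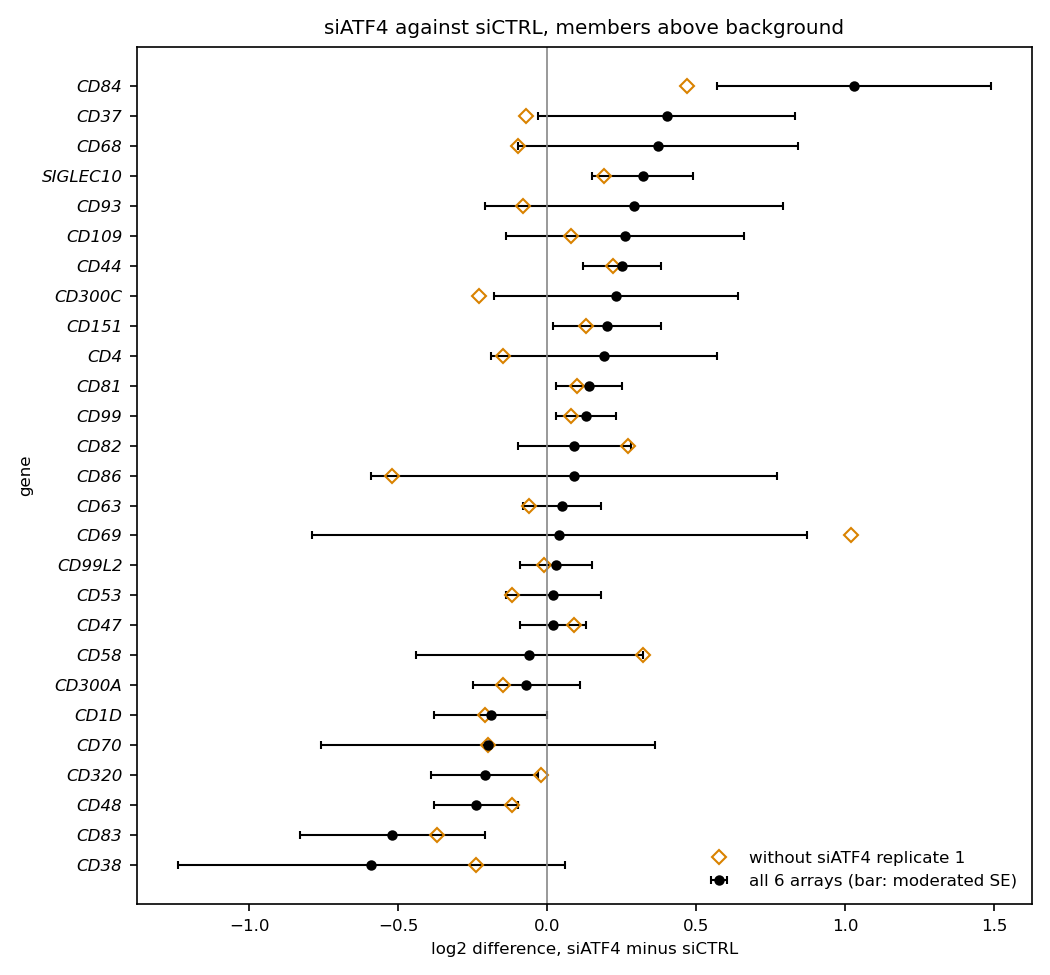
Log2 difference, siATF4 minus siCTRL (horizontal axis), for the 27 members above background, from all 6 arrays with the moderated SE (black) and without siATF4 replicate 1 (open diamonds). CD84 is highest at 1.03 and CD38 lowest at -0.59, no difference passed the adjusted threshold, and those of CD37, CD68, CD93, CD4 and CD86, among others, lie below 0 without that array.

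CD84 had the largest difference among the members above background. It is a self-binding receptor of the SLAM family, which signals through SAP-type adaptors. It read 7.08, 5.16 and 5.66 on siATF4 replicates 1, 2 and 3 and 5.10, 4.91 and 4.81 on siCTRL replicates 1, 2 and 3. All siATF4 arrays lay above all siCTRL arrays, though siATF4 replicate 2 exceeded siCTRL replicate 1 by little. The siCTRL levels lay near the background limit, at 4.91 against a limit of 4.82 on siCTRL replicate 2. With the 99th percentile of the keratin-associated genes as the limit, CD84 was above background in neither group. The group means were 5.96 ± 1.00 and 4.94 ± 0.15 (SD, n = 3 each), a difference of 1.03 (SE 0.46), with an unadjusted limma p of 0.0609, an adjusted p of 1.00 and a two-sided exact permutation p of 0.1, the smallest that 3 arrays against 3 can give. Without siATF4 replicate 1 the difference was 0.47 (unadjusted limma p 0.0458), and with the replicate block the unadjusted limma p was 0.0189. Neither passed adjustment over all genes. Without siATF4 replicate 1, 1 of 74 members and 197 of 14884 genes had an unadjusted limma p below 0.05.

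Among the other members of the SLAM and CD2 families, CD2, CD48 and CD58, differences were below 0. Outside the members, SLAMF6 was at 1.12 (SE 0.56) without overlap and LY9 at 0.49 (SE 0.37), or 0.42 and 0.04 without siATF4 replicate 1. SLAMF6 and LY9 passed the background level on that array alone. SLAMF1, which passed on no array, was at -0.16 and SLAMF7 at -0.39. CD48, a ligand of the SLAM-family receptor CD244, read 5.28, 5.72 and 5.58 on siATF4 arrays and 5.77, 5.76 and 5.78 on siCTRL arrays in replicate order. It was lower on each siATF4 array than on any siCTRL array, by -0.24 (SE 0.14), and by -0.12 without siATF4 replicate 1. CD58, the adhesion ligand of CD2, was at -0.06 (SE 0.38), with 6.09, 6.85 and 7.61 against 6.68, 6.72 and 7.31, and at 0.32 without that array. CD99, an adhesion protein used in leucocyte migration, lay slightly higher on each siATF4 array than on any siCTRL array: 9.72, 9.59 and 9.56 against 9.52, 9.48 and 9.49, a difference of 0.13 (SE 0.10), or 0.08 without siATF4 replicate 1. CD5 was at 0.15 but below background on all arrays.

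The 10 SIGLEC genes and CD22, itself a SIGLEC, showed 8 differences above 0 and 3 below, with a median of 0.15 (0.02 without siATF4 replicate 1). One was above background in a group, SIGLEC10, an inhibitory receptor that also binds CD24. SIGLEC10 read 6.36, 5.90 and 6.08 on siATF4 replicates 1, 2 and 3 and 5.57, 5.81 and 6.02 on siCTRL replicates 1, 2 and 3. The groups overlapped, and the difference was 0.32 (SE 0.17), with an unadjusted limma p of 0.109 and 0.19 without siATF4 replicate 1. SIGLEC6, SIGLEC8, SIGLEC11, SIGLEC12 and CD22 passed the background level on no array, and SIGLEC15, a SIGLEC of osteoclasts and macrophages, on 1, siATF4 replicate 1 (4.57).

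SIGLEC7, SIGLEC9 and SIGLEC14 were set apart by the array of siATF4 replicate 1. SIGLEC9, an inhibitory receptor of monocytes and neutrophils, read 6.16 there and 2.97, 2.97, 3.12, 3.20 and 2.96 on the other arrays. SIGLEC7, its close relative on NK cells and monocytes, read 6.58 there and between 3.13 and 3.69 elsewhere. SIGLEC14 read 7.37 there, 4.53 and 4.96 on siATF4 replicates 2 and 3, and 4.39, 4.37 and 4.70 on siCTRL arrays. On siATF4 replicate 1 these 3 genes were above background, while SIGLEC7 and SIGLEC9 lay below it on the other 5 arrays. With all arrays the differences were 0.94 (SE 0.82) for SIGLEC9, 0.82 (SE 0.85) for SIGLEC7 and 1.13 (SE 0.69) for SIGLEC14, and without that array -0.13, -0.28 and 0.26.

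CD180 showed the same array at its extreme. It is a Toll-like receptor homologue of B cells and monocytes that lacks a signalling domain of its own and modulates TLR4. It read 9.03, 5.38 and 3.74 on siATF4 replicates 1, 2 and 3 and 6.0, 4.92 and 3.69 on siCTRL replicates 1, 2 and 3. Its highest level was in siATF4 replicate 1 and its lowest levels were in the number 3 arrays of both groups, so the groups overlapped. The difference was 1.18 (SE 1.31), or -0.31 without siATF4 replicate 1. TLR4 itself was at 0.48 (SE 0.36), or 0.39 without that array, with 6.06, 5.27 and 6.30 against 4.93, 5.25 and 6.01.

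In rank by the gap between siATF4 replicate 1 and the highest other array, CD180 (3.03), SIGLEC9 (2.96), SIGLEC7 (2.89) and SIGLEC14 (2.41) stood at 7, 8, 9 and 15 of 14884 genes, and CD84 (1.42) at 53. These 5 members (6.76%) lay at least 1 log2 above every other array, against 0.894% of all genes. In the other direction 1 member did, CD69, an early activation antigen that holds lymphocytes in tissue, against 0.894% of all genes. CD69 read 3.40 on siATF4 replicate 1, 5.91 and 6.76 on siATF4 replicates 2 and 3, and 4.89, 4.98 and 6.07 on siCTRL arrays, a difference of 0.04 (SE 0.83) that became 1.02 without that array.

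**Figure D3:**
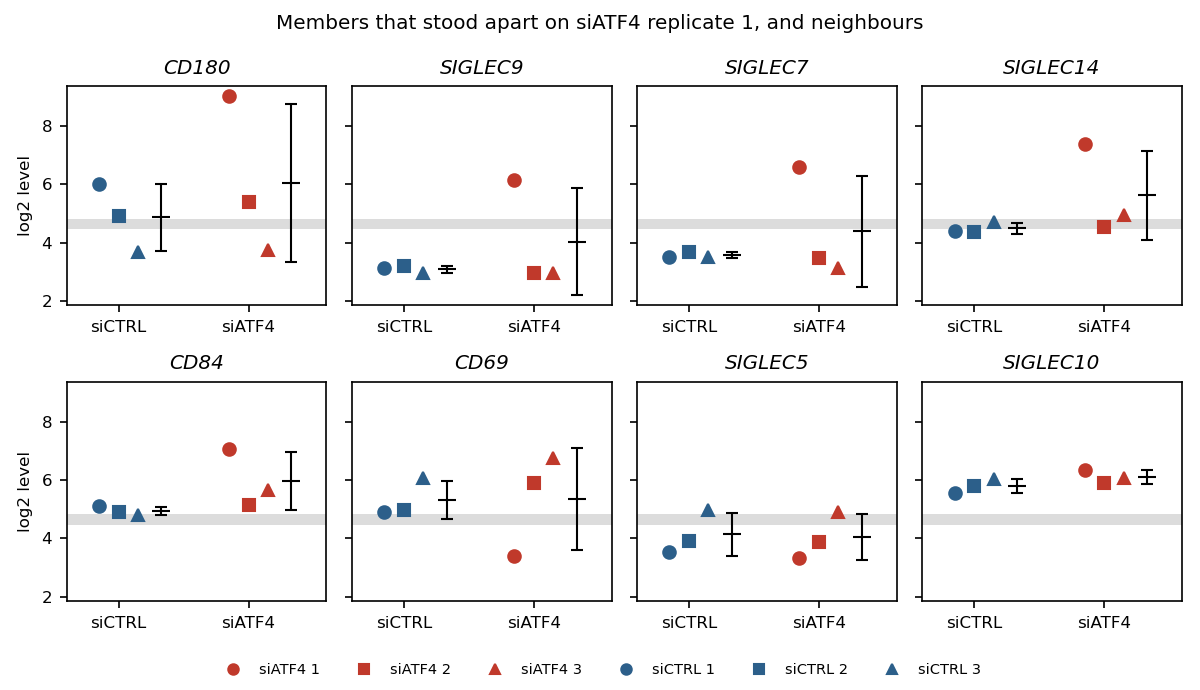
Log2 level (vertical axis) on each siCTRL (blue) and siATF4 (red) array for 8 members, with the group mean and SD (n = 3) as black bars beside the points and the background level of the 6 arrays as a grey band. The siATF4 replicate 1 array is far above the others for CD180, SIGLEC9, SIGLEC7, SIGLEC14 and CD84 and below them for CD69 (3.40). The groups of SIGLEC5 and SIGLEC10 overlap, and for SIGLEC5 the number 3 arrays of both groups (4.92 and 4.96) lie above the others.

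Neighbouring genes in the genome differed in how siATF4 replicate 1 stood to the other arrays. In the order of the GRCh38.p14 gene table, SIGLEC9 and SIGLEC7 are neighbours at one end of the chromosome 19 cluster and SIGLEC14 is at the other, next to SIGLEC5. Relative to the mean of siATF4 replicates 2 and 3, siATF4 replicate 1 was 3.19 higher for SIGLEC9, 3.28 for SIGLEC7 and 2.62 for SIGLEC14. Between them SIGLEC10, SIGLEC8, SIGLEC12 and SIGLEC6 were at 0.37, 0.02, 0.33 and 0.34. SIGLEC5, which shares nearly identical outer domains with SIGLEC14 and carries inhibitory motifs, was at -1.05. SIGLEC5 read 3.34, 3.87 and 4.92 on siATF4 arrays and 3.54, 3.92 and 4.96 on siCTRL arrays, so only the number 3 arrays were above background. How far the probes of such near copies (SIGLEC5 and SIGLEC14, SIGLEC7 and SIGLEC9) read each other's transcripts was not tested.

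The same was seen in the SLAM and CD300 regions; all 3 regions were chosen after their values were seen. In the SLAM region of chromosome 1, siATF4 replicate 1 was higher than the mean of the other siATF4 arrays by 2.12 for SLAMF6, 1.67 for its neighbour CD84 and 1.35 for LY9, while SLAMF1, CD48 and SLAMF7 were at -0.34, -0.37 and -0.12. The CD300 genes of chromosome 17 encode paired activating and inhibitory lipid receptors of myeloid cells. There CD300LB was at 1.48, CD300C at 1.38 and CD300LF at 0.54, and CD300A, CD300LD and CD300E were at 0.24, -0.30 and 0.12. CD300LB, like SLAMF6 and LY9, passed the background level on siATF4 replicate 1 alone, and SLAMF1, CD300LD and CD300E passed on no array. CD300C, which activates monocytes, read 7.03, 5.86 and 5.45 on siATF4 arrays and 6.32, 5.67 and 5.66 on siCTRL arrays, a difference of 0.23 (SE 0.41) that was -0.23 without siATF4 replicate 1. CD300A, an inhibitory member, was at -0.07 (SE 0.18).

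**Figure D4:**
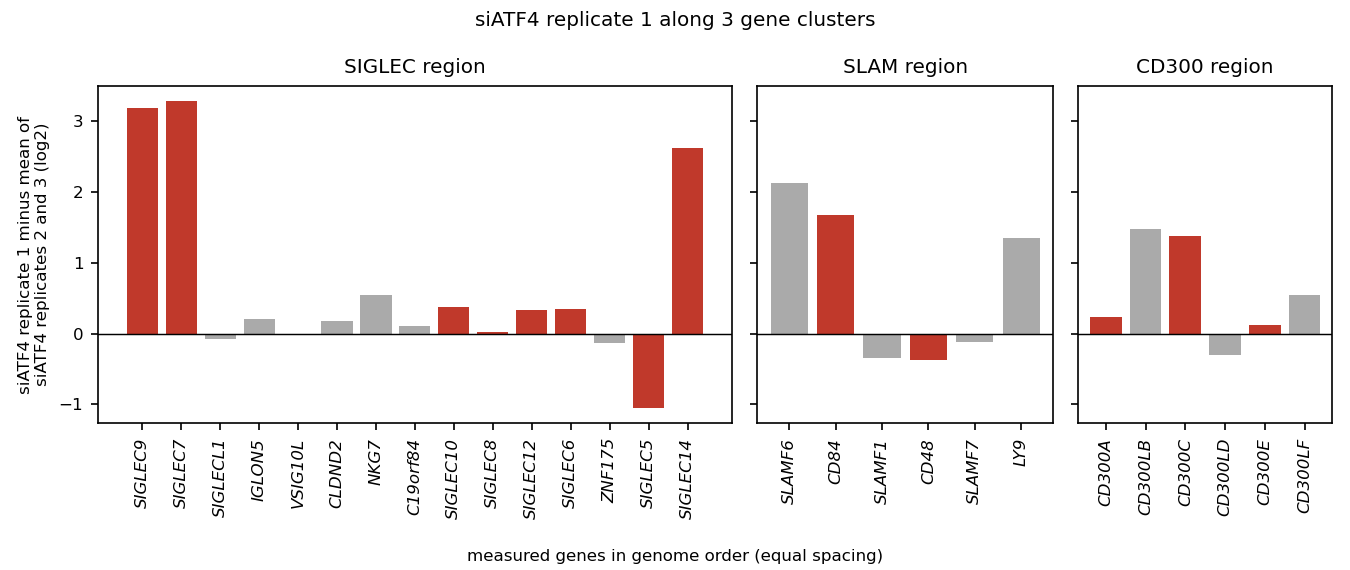
Level on siATF4 replicate 1 minus the mean of siATF4 replicates 2 and 3 (vertical axis, log2) for the measured genes of 3 clusters in genome order, equally spaced, with members in red and other genes in grey. Tall bars (SIGLEC9 3.19, SIGLEC7 3.28, SIGLEC14 2.62, SLAMF6 2.12) stand among genes near 0, and SIGLEC5 is at -1.05 next to SIGLEC14. Several of the genes near 0, SIGLEC8 and CD300E among them, passed the background level on no array.

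The sequence before the transcription start is given for SIGLEC9, SIGLEC14 and CD180, to show which of 3 short motifs they hold. These genes had gaps of over 2 log2 on siATF4 replicate 1, as had SIGLEC7 (2.89), whose sequence is not printed. Sequences are the 250 bases upstream of the start, from RefSeq on GRCh38.p14, on the gene's strand, at chr19:51124630-51124879 (plus strand) for SIGLEC9, chr19:51646826-51647075 (minus strand) for SIGLEC14 and chr5:67196800-67197049 (minus strand) for CD180. Capitals mark a match on either strand.
SIGLEC9: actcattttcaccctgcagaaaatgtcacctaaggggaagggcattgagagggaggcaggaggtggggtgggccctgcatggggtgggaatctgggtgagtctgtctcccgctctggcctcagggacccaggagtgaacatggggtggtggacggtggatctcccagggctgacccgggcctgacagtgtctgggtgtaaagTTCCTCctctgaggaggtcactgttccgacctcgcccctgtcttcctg
SIGLEC14: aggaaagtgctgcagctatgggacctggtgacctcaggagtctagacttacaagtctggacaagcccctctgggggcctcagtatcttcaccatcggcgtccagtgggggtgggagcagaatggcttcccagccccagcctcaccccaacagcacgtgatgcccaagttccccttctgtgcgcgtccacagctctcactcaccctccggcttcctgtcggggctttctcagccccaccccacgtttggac
CD180: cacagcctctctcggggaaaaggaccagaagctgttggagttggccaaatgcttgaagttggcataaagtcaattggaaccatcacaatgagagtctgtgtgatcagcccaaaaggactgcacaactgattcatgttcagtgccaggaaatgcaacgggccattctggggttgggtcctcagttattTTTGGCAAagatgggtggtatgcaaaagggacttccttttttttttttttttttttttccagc

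The motifs were TGATGNAA, the composite element that ATF4 binds with C/EBP partners, GAGGAA, the core bound by PU.1 and other ETS factors, and TTGCNNAA, a C/EBP site. Each was counted on both strands and on its own, whether or not it overlapped another. SIGLEC9 had 1 match to GAGGAA, CD180 had 1 to TTGCNNAA, and SIGLEC14 had none of the 3. SIGLEC7, not printed, held GAGGAA and neither of the others. Over the 58 members with a window in the table, TGATGNAA was in 0, GAGGAA in 29 and TTGCNNAA in 7. Of the 9707 protein-coding genes tested that had a window, 2.77%, 29.5% and 9.6% held them. Among 18 members above background with a window the counts were 0, 6 and 3. A match is a run of letters, not a bound site.

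For several myeloid antigens the arrays of 1 group were further apart than the group means. CD86, a co-stimulatory ligand of CD28 on monocytes and dendritic cells, read 7.23, 6.02 and 4.77 on siATF4 arrays and 6.80, 5.92 and 5.02 on siCTRL arrays. CD93, a receptor of monocytes and early progenitors, read 8.68, 8.19 and 6.94 on siATF4 arrays and 8.21, 7.77 and 6.94 on siCTRL arrays. CD4 read 8.05, 7.50 and 6.58 against 7.43, 7.40 and 6.74. For all 3 genes the number 3 array was the lowest of its group in both groups, and the difference between groups was small beside that: 0.09 (SE 0.68) for CD86, 0.29 (SE 0.50) for CD93 and 0.19 (SE 0.38) for CD4. Without siATF4 replicate 1 these were -0.52, -0.08 and -0.15.

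The number 3 arrays were the lowest of both groups for 24 of 74 members (32.4%), against 16.5% of all genes, and the highest of both for 9 (12.2%), against 20.6% of all genes. The 24 include genes above background on no array, such as CD14 and CD34. Among the 27 members above background they were lowest of both for 10 (37.0%), against 18.7% of all genes above background. They were highest of both for 4 of the 27 (14.8%), against 32.8%. The siCTRL arrays alone spanned at least 1 log2 for 13 members (17.6%), against 4.72% of all genes. Among the members in that count were CD36, a scavenger receptor for oxidised lipids and fatty acids, at 5.75, 5.03 and 3.78 on siCTRL replicates 1, 2 and 3, and CD209, the lectin DC-SIGN, at 6.79, 5.85 and 3.60. On the siATF4 arrays CD36 read 5.26, 5.35 and 3.53 and CD209 read 3.90, 5.50 and 4.09. CD36 was thus low on both number 3 arrays, while CD209 was also low on siATF4 replicate 1, and its difference of -0.91 (SE 0.83) was -0.61 without that array, -0.23 without siCTRL replicate 1 and -1.82 without siCTRL replicate 3. Of the 8 monocytic markers, 6 were lowest on the number 3 arrays of both groups (LYZ, CSF1R, TYROBP, FLT3, MEIS1 and AZU1), while MPO was highest there in both groups and SPI1 was lowest on number 3 in siATF4 only. LYZ read 10.68, 10.87 and 8.33 on siATF4 arrays and 10.85, 10.37 and 8.51 on siCTRL arrays, and CSF1R read 8.18, 6.26 and 5.10 on siATF4 arrays and 6.57, 6.22 and 5.05 on siCTRL arrays; their part in the members' spread was not tested.

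**Figure D5:**
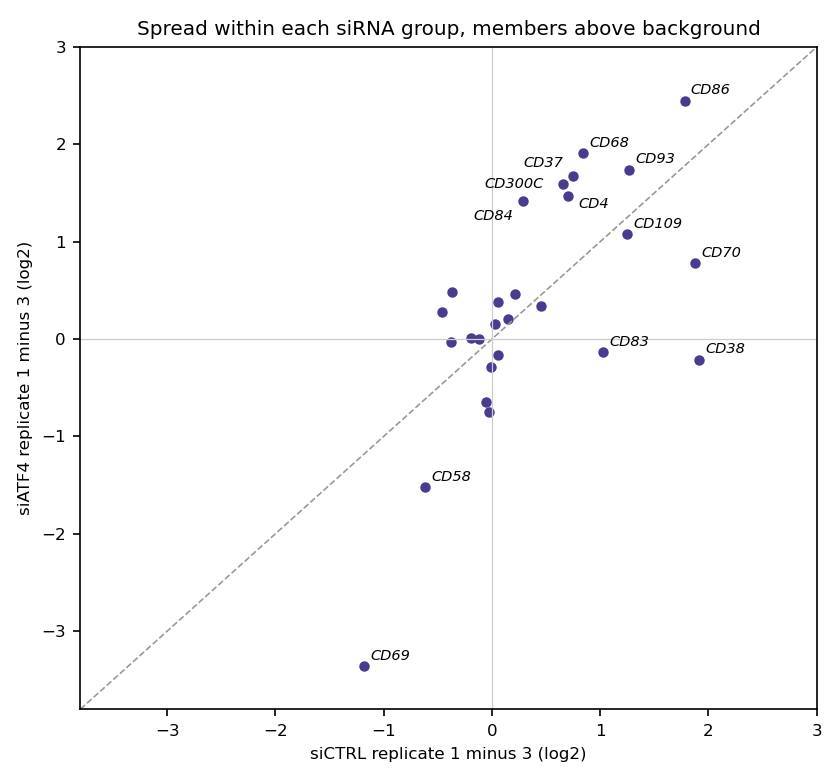
Level on replicate 1 minus replicate 3 in the siATF4 group (vertical axis, log2) against the same in the siCTRL group (horizontal axis, log2) for the 27 members above background; the dashed line marks equal values. CD86, CD93, CD68, CD37 and CD4 are positive in both groups, CD69 and CD58 negative in both, and CD38 and CD83 positive in siCTRL (1.91 and 1.03) but near 0 in siATF4 (-0.21 and -0.13).

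The 11 myeloid receptors measured (2 above background) had 6 differences above 0 and 5 below. CD68 and the tetraspanin CD37 followed the same order of arrays, and among members above background their differences came next after that of CD84. CD68 read 11.18, 10.26 and 9.27 on siATF4 arrays and 10.27, 9.92 and 9.42 on siCTRL arrays, a difference of 0.37 (SE 0.47). CD37, a B-cell and myeloid tetraspanin, read 9.0, 7.85 and 7.32 on siATF4 arrays and 8.0, 7.71 and 7.25 on siCTRL arrays, a difference of 0.40 (SE 0.43). Both overlapped between groups, and without siATF4 replicate 1 they were at -0.10 and -0.07. CD101, an immunoglobulin-like inhibitory receptor of myeloid and T cells, was higher in every replicate number (by 0.61, 0.32 and 0.15) but above background on siATF4 replicate 1 alone (4.99). Its difference was 0.36, with an unadjusted limma p of 0.354, or 0.034 with the replicate block. Without siATF4 replicate 1 it was 0.04, with an unadjusted limma p of 0.902.

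Tetraspanins are 4-pass membrane proteins that organise other receptors in the membrane, and 6 of 7 measured were above background. All 7 had a difference above 0 and none passed the test; CD53 was at 0.02, or -0.01 with quantile normalization. CD151, which binds laminin-binding integrins, read 6.48, 6.04 and 6.51 on siATF4 arrays and 6.02, 6.02 and 6.40 on siCTRL arrays, a difference of 0.20 (SE 0.18). CD81, part of the B-cell co-receptor, was at 0.14 (SE 0.11), CD82 at 0.09 (SE 0.19), and without siATF4 replicate 1 CD151, CD81 and CD82 were at 0.13, 0.10 and 0.27. With all arrays the lysosomal and exosomal CD63 was at 0.05 (SE 0.13). Without siATF4 replicate 1 the median of the 7 turned from 0.14 to -0.06, and CD37, CD53, CD63 and CD9 lay below 0.

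The lowest differences among members above background were those of CD38 and CD83. Of the 6 co-stimulatory ligands measured, 2 were above 0 and 4 below, with 0 called in limma. CD38, an ectoenzyme that consumes NAD and a target of therapeutic antibodies, read 6.06, 7.95 and 6.28 on siATF4 replicates 1, 2 and 3 and 8.11, 7.75 and 6.20 on siCTRL replicates 1, 2 and 3. Both number 3 arrays and siATF4 replicate 1 were low, the groups overlapped, and the difference of -0.59 (SE 0.65) was -0.24 without siATF4 replicate 1. Leaving out siCTRL replicate 1 gave -0.21, siATF4 replicate 2 gave -1.18 and siCTRL replicate 3 gave -1.17. CD83, a maturation marker of dendritic cells, read 6.18, 6.92 and 6.31 against 7.57, 6.84 and 6.54, a difference of -0.52 (SE 0.31), or -0.37 without siATF4 replicate 1 and -0.22 without siCTRL replicate 1, its highest array. CD70, the ligand of CD27 and a marker of leukaemic blasts, was at -0.20 (SE 0.56), with 9.20, 9.96 and 8.42 against 10.17, 9.71 and 8.29.

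Several antigens differed little between groups, and CD47 also little between arrays. CD47, which signals to SIRPA on macrophages to prevent engulfment, read 8.90, 9.12 and 9.06 on siATF4 arrays and 9.01, 9.05 and 8.95 on siCTRL arrays, a difference of 0.02 (SE 0.11). CD44, the hyaluronan receptor, read 7.42, 7.24 and 7.41 against 7.10, 6.95 and 7.28. Only siCTRL replicate 3 reached into the siATF4 range, and the difference was 0.25 (SE 0.13), with an unadjusted limma p of 0.0926, or 0.22 without siATF4 replicate 1. CD320, the cellular receptor for vitamin B12 bound to transcobalamin, read 5.23 on siATF4 replicate 1 and between 5.71 and 5.88 elsewhere. Its difference was -0.21 (SE 0.18), or -0.02 without that array. CD99L2 (0.03) and CD53 (0.02) were also near 0. CD1D, which presents lipids to NKT cells, was at -0.19 (SE 0.19), and at -0.04 without siATF4 replicate 3. The brighter of 2 probe sets of CD109, a GPI-anchored protease inhibitor and co-receptor of the TGF-beta pathway, varied widely within groups. It read 7.85, 7.82 and 6.77 on siATF4 arrays and 7.89, 7.14 and 6.64 on siCTRL arrays. The difference was 0.26 (SE 0.40), or 0.08 without siATF4 replicate 1. The other probe set lay below background on every array, between 3.48 and 3.78. With both averaged the difference was 0.16.

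Other surface antigens with a CD number but another symbol were taken from a list of 66, of which 34 were measured. In limma 0 were called, 17 were above 0 and 17 below, and the median difference was 0.01. LAMP2, a lysosomal membrane protein (0.29, SE 0.09, unadjusted limma p 0.0177), was the gene of that list below the unadjusted level. CSF1R, the receptor of macrophage colony-stimulating factor, was at 0.57 (SE 0.78), and -0.26 without siATF4 replicate 1. ICAM1 and IGF1R were at -0.97 (SE 0.80) and -0.83 (SE 0.75), and at -0.35 and 0.14 without that array.

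Genes that make SIGLEC ligands or carry SIGLEC signals were measured for 11 of 27, with 8 above 0, 3 below and 0 called in limma. CMAS, which activates sialic acid for transfer to glycans, read 7.23, 6.98 and 7.0 on siATF4 arrays and 6.97, 6.49 and 6.94 on siCTRL arrays, without overlap, a difference of 0.27 (SE 0.16). The sialidase NEU3 was at 0.26 (SE 0.13). GNE, the first enzyme of sialic acid synthesis, named after its values were seen, read 6.29 on siATF4 replicate 1, 4.95 and 4.21 on the other siATF4 arrays, and 4.78, 4.48 and 4.12 on siCTRL arrays. TYROBP, whose product is the partner of SIGLEC14, read 11.49, 10.53 and 9.21 on siATF4 arrays and 10.79, 10.40 and 9.43 on siCTRL arrays, a difference of 0.20 (SE 0.60) that was -0.33 without siATF4 replicate 1. The signalling exchange factor VAV1 and the adaptor HCST were at -0.12 and -0.01.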

How the data were processed

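From each of 6 MOLM14 samples 100 ng of total RNA was labelled with a GeneChip whole-transcript kit (per the labels). The deposited log2 values (1 for each of 53617 features and each sample) were used as the authors gave them; the submitters' processing notes name Partek, with no version. The sources used here do not say how background was corrected, how arrays were normalized or which log base was taken. The range was 1.91 to 14.2 and the array medians 3.88 to 3.96. The annotation table named 1 gene for 16098 features, several for 0 and none for 37519, which stay unnamed; all 16098 identifiers matched the GRCh38.p14 gene table, used for names and gene order. The brightest feature stood for each of 779 genes with several, CD109 and CD177 among the members. No filter on dim genes was applied.

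siATF4 and siCTRL (3 arrays each) were compared by limma (version 3.58.1, R version 4.3.3; lmFit, then eBayes) on siRNA group alone; p-values were adjusted by Benjamini-Hochberg over 14884 genes, at a threshold of 0.05; the fit was tested on simulated data. SE is limma's moderated standard error and SD is over 3 arrays. Olfactory receptor genes were to set the background, but 1 was named, so keratin-associated genes, listed as an alternative, were used. The labels do not say that replicate numbers pair the samples, which the replicate block assumes. Deviations from group means correlated over genes at 0.20, 0.40 and 0.62 for numbers 1, 2 and 3. However, siATF4 replicate 2 correlated more with siCTRL replicate 1 (0.48) than with siCTRL replicate 2, so the pairing is uncertain.

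Named members were the numbered SIGLEC genes and CD22, the 15 brightest, those above background without overlap, those with an unadjusted p below 0.05, the 6 highest and 6 lowest differences above background and 13 fixed antigens (CD74 not measured), 36 in all; 11 others were named after their values were seen. Of each context list the rule took the 2 largest differences each way above background, and every measured lineage marker; LAMP2, GNE and the neighbours in gene clusters were named after their values were seen. Members and lists were chosen with earlier results of these data known.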

Additional observations from a re-analysis of the deposited data

How the results depend on the processing

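Over all settings 0 genes, and so 0 members, passed limma's adjusted threshold: arrays brought to equal medians or quantile-normalized, array weights, a robust eBayes prior with a trend on the mean, the replicate block, features averaged per gene, dim genes dropped (6639 left), and each array left out; at an unadjusted p below 0.05 there were 0 to 2 members and 96 to 464 genes. The replicate block moved the count of all genes from 218 to 464 and changed no call. Leaving out both arrays of a replicate number and the 90th and 99th background percentiles were chosen after seeing the data; olfactory receptor percentiles were not run, since 1 such gene was named. The count of 27 members above background was 21 to 29 with other background levels and 27 to 31 with each array left out. Of 47 named members 21 kept their direction in every setting that held them, at most 13. Members below background have no value with dim genes dropped. SIGLEC6, at -0.0 with array weights against 0.13, was counted as kept. With array weights the sign turned for CD300A (0.05), CD300C (-0.08), CD53 (-0.09), CD58 (0.12), CD63 (-0.01), CD86 (-0.34), CD99L2 (-0.01) and SIGLEC5 (0.15), and with quantile normalization for CD53 (-0.01). With each array left out in turn the difference crossed 0 for 26: CD109 (-0.03 to 0.61), CD14 (-0.38 to 0.10), CD180 (-0.31 to 2.33), CD274 (-0.07 to 0.01), CD300A (-0.16 to 0.09), CD300C (-0.23 to 0.56), CD34 (-0.10 to 0.09), CD36 (-0.67 to 0.45), CD37 (-0.07 to 0.77), CD4 (-0.15 to 0.59), CD47 (-0.02 to 0.09), CD53 (-0.12 to 0.11), CD58 (-0.44 to 0.32), CD63 (-0.06 to 0.13), CD68 (-0.10 to 0.85), CD69 (-0.66 to 1.02), CD70 (-0.75 to 0.19), CD82 (-0.11 to 0.27), CD86 (-0.52 to 0.71), CD9 (-0.17 to 0.63), CD93 (-0.08 to 0.79), CD99L2 (-0.02 to 0.12), SIGLEC5 (-0.54 to 0.31), SIGLEC7 (-0.28 to 1.45), SIGLEC8 (-0.21 to 0.04) and SIGLEC9 (-0.13 to 1.47). The cause was not tested. CD84 stayed above 0, from 0.47 without siATF4 replicate 1 to 1.43 without siATF4 replicate 2. No detection call was used, so levels near the background limit are uncertain.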
